A study of Homo sapiens with 24 samples.

Results

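The class I phosphoinositide 3-kinase (PI3K) subunit genes are 4 catalytic genes (PIK3CA, PIK3CB, PIK3CD and PIK3CG) and 5 regulatory genes (PIK3R1, PIK3R2, PIK3R3, PIK3R5 and PIK3R6). They were taken by symbol from the 2 deposited expression tables, in which these 9 genes stand among 35587 gene symbols. All 9 were found in both tables and all 9 passed the filter on low values in both. RNA was measured by poly(A) RNA sequencing in MOLM14 and OCI-AML2, established human acute myeloid leukaemia cell lines, after 24 h with the compound ARM165, the compound AZ2 or the vehicle DMSO. Each of the 6 groups had 4 libraries, 24 in all. The series title names a degrader of a PI3K gamma and AKT module, and which compound that is cannot be read from the labels. Doses and the origin of the replicates are not stated. The compounds are therefore set side by side at doses not known to match, and the spread that p-values measure may be technical.

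Class I PI3Ks phosphorylate a membrane lipid to make phosphatidylinositol trisphosphate (PIP3), which recruits AKT and other proteins to the membrane. PIK3CA, PIK3CB and PIK3CD encode the alpha, beta and delta catalytic subunits, which bind the SH2-domain regulatory subunits encoded by PIK3R1, PIK3R2 and PIK3R3 and act mainly downstream of tyrosine kinases, with the beta subunit also responding to G proteins. PIK3CG encodes the gamma catalytic subunit, which binds instead the products of PIK3R5 or PIK3R6 and responds to G protein beta-gamma subunits and RAS. The alpha and beta subunits are found in most tissues, whereas the delta and gamma subunits are largely restricted to blood cells.

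The values are normalized estimated reads per gene, scaled separately in each line, so that levels were not compared between lines and a change is relative to the other genes of the same line. Depth ranged from 35.4 M to 59.0 M estimated reads per library, with 18889 to 19699 symbols above 0. The estimate took the commonest small value of a library as a single read. By that unit only 15.1 to 15.9% of values above 0 were whole within 0.01 read, so the depths are rough. Of 16 myeloid marker genes, 15 or 16 had a mean of at least 10 in every group. Markers of other cell types were not all absent: CD3E, a defining T cell gene, had a mean of at most 1.86 in any group, whereas NKG7 averaged 401 to 808. Summed myeloid marker levels were 54270 to 65850 with ARM165 and 102400 to 109300 with DMSO in MOLM14, and 66370 to 71250 with ARM165 and 136400 to 145300 with DMSO in OCI-AML2. These sums rest on a few abundant genes such as LYZ and ELANE, and in MOLM14 single markers moved both ways. Summed levels of 9 T and NK cell markers were 1820 to 1971 with ARM165 and 619 to 675 with DMSO in MOLM14, where CD8A alone had a mean of 1390 with ARM165 and 38.8 with DMSO. In OCI-AML2 the same sums were 568 to 697 with ARM165 and 806 to 944 with DMSO. Summed levels of 5 B cell markers were 323 to 412 with ARM165 and 555 to 674.5 with DMSO in MOLM14, where PAX5 averaged 302 with ARM165 and 527 with DMSO, and 41.5 to 86.5 with ARM165 and 81.0 to 133 with DMSO in OCI-AML2. Summed levels of 8 epithelial and fibroblast markers were 3623 to 3920 with ARM165 and 2076 to 2395 with DMSO in MOLM14, where KRT18 averaged 3169 with ARM165 and 1917 with DMSO, and at most 73.7 in both groups of OCI-AML2. The 8 erythroid and megakaryocyte markers summed to at most 66.2 in any library. The part of these marker shifts in the changes below was not tested, and in bulk RNA fewer cells of a type and less RNA per cell cannot be told apart.

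Most of the subunit genes changed with ARM165 in both lines, some up and some down. In MOLM14, PIK3R5 and PIK3CA rose, PIK3CD, PIK3CG, PIK3R2, PIK3R3 and PIK3R6 fell, and PIK3CB and PIK3R1 did not pass the test. In OCI-AML2, PIK3R5 and PIK3CA again rose and the other 7 genes fell, PIK3CB among them. A gene was called at a limma adjusted p under 0.05 (Benjamini-Hochberg, over all genes tested). By this rule 2 of 9 subunit genes were called higher and 5 lower in MOLM14, where 35.5% of 15288 tested genes were called higher and 34.0% lower. In OCI-AML2, 2 were called higher and 7 lower, where 34.2% of 15377 tested genes were called higher and 31.6% lower. The share of all genes called was thus 69.5% in MOLM14 and 65.8% in OCI-AML2, and a call with ARM165 sets no single subunit gene apart. With AZ2, none of the 9 was called in either line, where 0% of all genes were called in MOLM14 and 0.111% in OCI-AML2.

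**Figure D1:**
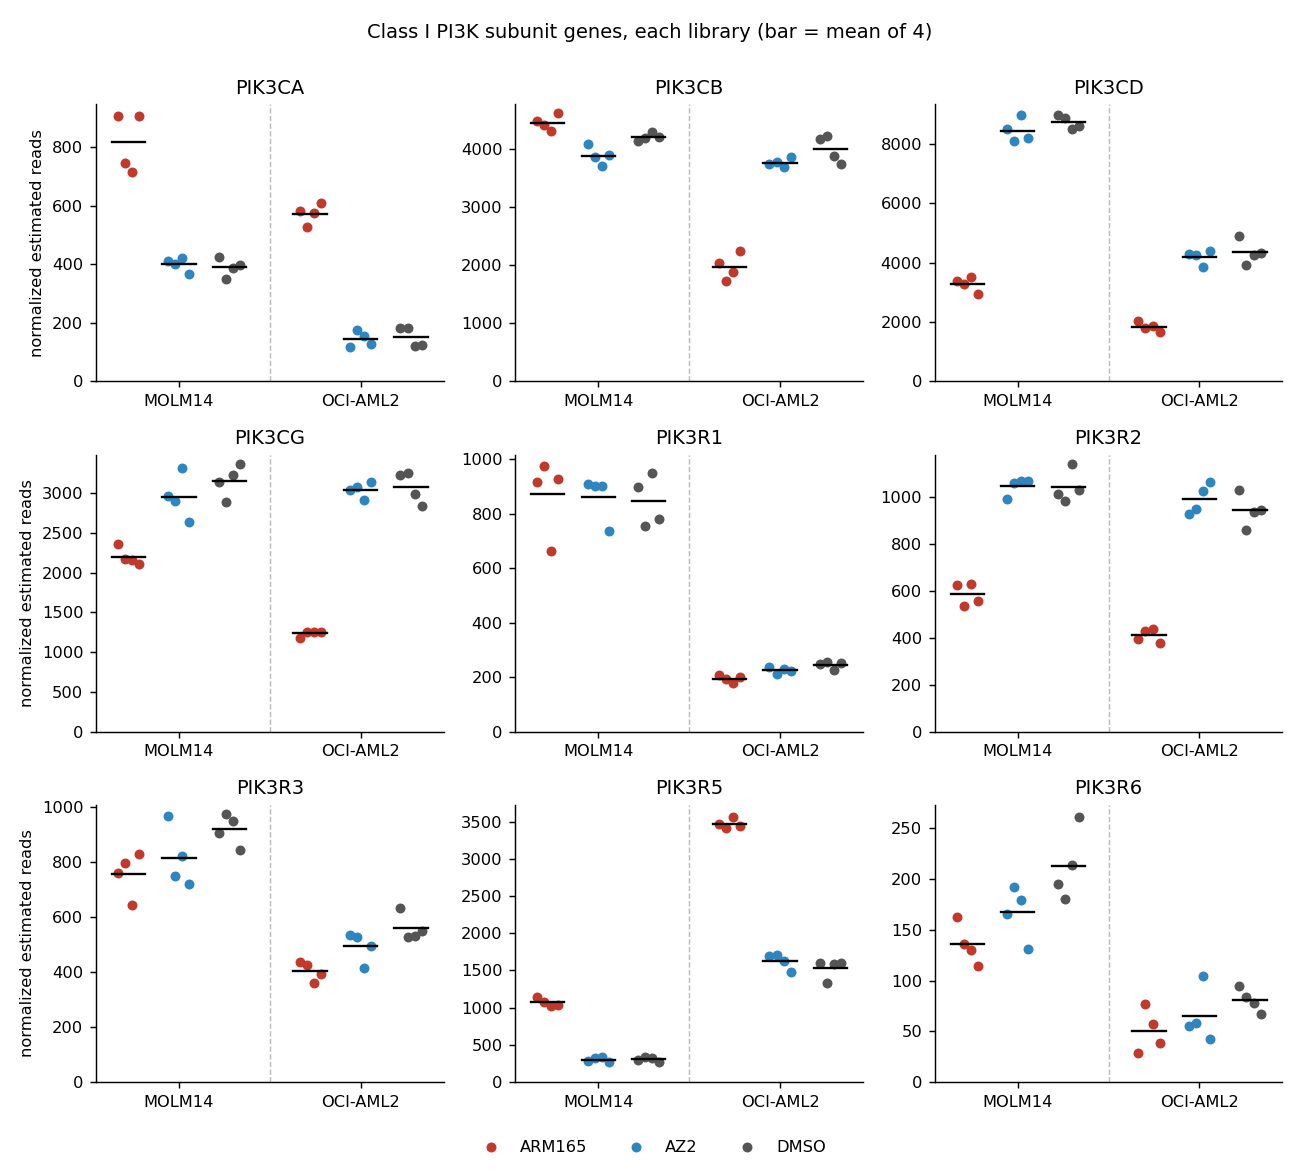
Normalized estimated reads of the 9 subunit genes in each of 24 libraries, by line and treatment (points, libraries; bars, means of 4; linear axes from 0; the 2 lines were scaled separately and cannot be compared in level). PIK3CD with ARM165 lay between 2930.2 and 3520.1 in MOLM14, below all DMSO libraries (8515 to 8975), and PIK3R5 lay above its DMSO libraries in both lines.

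PIK3CG, the gamma catalytic gene, was lower with ARM165 in both lines, and by more in OCI-AML2. In MOLM14 it had 2359, 2175, 2160.1 and 2108 reads with ARM165, 2969, 2903, 3316 and 2641 with AZ2, and 3143, 2896, 3227 and 3376 with DMSO. Every ARM165 library lay below every DMSO library, and the AZ2 and DMSO libraries overlapped. The log2 change with ARM165 was -0.52 ± 0.067 (SE; limma adjusted p = 4.63e-06), which left 69.6% of the DMSO mean. In OCI-AML2 it had 1180.2, 1260, 1257 and 1260 reads with ARM165, 3047, 3080.4, 2919 and 3147 with AZ2, and 3237, 3259, 2995 and 2845 with DMSO. Again the ARM165 libraries stood below all others. The change was -1.31 ± 0.057 (limma adjusted p = 1.90e-11), with 40.2% of the DMSO mean remaining.

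The RefSeq promoter window of PIK3CG is shown because this gene encodes the catalytic subunit of the complex named in the series title. It lies at chr7:106865229-106865528 (GRCh38.p14, plus strand), from 250 bases before to 50 bases after the annotated start, so that 5′ exonic sequence closes the window. Capitals mark the motif GAGGAAG, a binding motif of the myeloid factor PU.1 type, here on the reverse strand.
PIK3CG promoter: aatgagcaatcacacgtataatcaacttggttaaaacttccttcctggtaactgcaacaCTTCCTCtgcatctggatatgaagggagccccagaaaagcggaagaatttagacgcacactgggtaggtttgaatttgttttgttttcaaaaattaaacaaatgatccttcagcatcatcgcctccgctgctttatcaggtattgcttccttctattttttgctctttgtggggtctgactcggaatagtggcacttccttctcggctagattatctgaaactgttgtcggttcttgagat
This window is 41.7% G or C, against a median of 58.7% over all 35116 RefSeq promoters of that length. The motif was searched on both strands, and 13.6% of those promoters hold it. A match is a description and no evidence of binding.

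The 2 regulatory genes of PI3K gamma moved in opposite directions with ARM165. PIK3R5 rose in both lines, and PIK3R6 was called lower in both. PIK3R5 encodes the p101 adaptor, which confers strong sensitivity to G protein beta-gamma subunits, and PIK3R6 encodes the p84 (p87) adaptor. In MOLM14, PIK3R5 had 1149, 1082, 1025 and 1036 reads with ARM165, 283, 324, 333 and 266 with AZ2, and 296, 335, 323 and 270.2 with DMSO. The ARM165 libraries stood far above the other 8, which overlapped. The change with ARM165 was 1.81 ± 0.096 (limma adjusted p = 1.49e-10), or 351% of the DMSO mean. In OCI-AML2, PIK3R5 had 3475, 3413, 3559 and 3443 reads with ARM165, 1698, 1703, 1623 and 1474 with AZ2, and 1597, 1328, 1583 and 1598 with DMSO. Here too no ARM165 library overlapped another group. The change was 1.19 ± 0.070 (limma adjusted p = 5.19e-10).

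PIK3R6 had the fewest reads of the 9 genes with DMSO in both lines, not divided by length, and its libraries spread widely. In MOLM14 it had 163, 136, 130.2 and 115 reads with ARM165, 166, 192, 179.8 and 131 with AZ2, and 196, 181, 214 and 261 with DMSO. All ARM165 libraries were below all DMSO libraries, and the AZ2 libraries overlapped both. The change with ARM165 was -0.64 ± 0.16 (limma adjusted p = 0.00229). In OCI-AML2 it had 28.2, 77.4, 57.3 and 38.2 reads with ARM165, 55.6, 57.9, 104 and 42.0 with AZ2, and 94.5, 83.3, 77.8 and 67.2 with DMSO. These groups overlapped, and the call there was marginal, with a change of -0.76 ± 0.32 (limma adjusted p = 0.0493). It was lost in 8 of the 12 fits that left out 1 library: without DMSO replicate 1, 2, 3 or 4 (adjusted p = 0.112, 0.0859, 0.0754 and 0.0518), AZ2 replicate 1 or 2 (0.0577 and 0.0581) or ARM165 replicate 1 or 4 (0.16 and 0.114).

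PIK3R5 and PIK3R6 are adjacent on chromosome 17 in the RefSeq gene order, between MFSD6L and NTN1. Neither shared a 31-base sequence with any other gene of GENCODE release 29, so reads could not pass between them by sequence identity of that length. NTN1 averaged 20.5 with ARM165 and 14.2 with DMSO in MOLM14, and MFSD6L averaged 5.44 with ARM165 and 5.62 with DMSO, so both flanking genes were low there. STX8, the next gene after NTN1, averaged 968 with ARM165 and 914 with DMSO in MOLM14, and 1211 with ARM165 and 1112 with DMSO in OCI-AML2. These neighbours are named for their position, with their values already seen. Both RefSeq promoter windows of PIK3R5 are printed, because it rose in both lines while its neighbour was called lower. They lie at chr17:8912468-8912767 and chr17:8965658-8965957 (GRCh38.p14, minus strand), with the motif GAGGAAG in capitals, on the reverse strand, in the first.
PIK3R5 promoter at 8912468: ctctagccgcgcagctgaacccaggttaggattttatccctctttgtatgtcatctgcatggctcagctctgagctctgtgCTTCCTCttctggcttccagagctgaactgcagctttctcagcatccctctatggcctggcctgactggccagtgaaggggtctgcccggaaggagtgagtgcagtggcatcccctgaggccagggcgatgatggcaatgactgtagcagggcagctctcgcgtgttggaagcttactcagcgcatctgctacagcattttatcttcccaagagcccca
PIK3R5 promoter at 8965658: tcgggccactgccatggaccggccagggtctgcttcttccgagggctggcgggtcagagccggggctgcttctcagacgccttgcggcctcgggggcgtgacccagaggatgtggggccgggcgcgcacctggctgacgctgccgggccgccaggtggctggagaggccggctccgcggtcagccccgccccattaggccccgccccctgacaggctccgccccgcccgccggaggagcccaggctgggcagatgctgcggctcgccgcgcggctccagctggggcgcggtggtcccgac
The first window is 56.0% G or C with 7 CpG, and the second is 76.7% with 32 CpG, against a median of 14 CpG over the background promoters. The tables sum transcripts to genes, so use of the 2 starts was not measured.

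Within each library, the ratio of PIK3R5 to PIK3R6 reads does not depend on how that library was scaled. In MOLM14 this ratio averaged 7.99 ± 0.80 with ARM165, 1.82 ± 0.15 with AZ2 and 1.48 ± 0.34 with DMSO (SD, n = 4 each). In OCI-AML2 it averaged 80.0 ± 34.6 with ARM165, 27.7 ± 8.41 with AZ2 and 19.2 ± 3.56 with DMSO. ARM165 and DMSO libraries did not overlap in either line, and the means were 5.41 and 4.16 times as high with ARM165. The ratio in OCI-AML2 rests on PIK3R6 values as low as 28.2, and no test was made on these ratios.

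**Figure D2:**
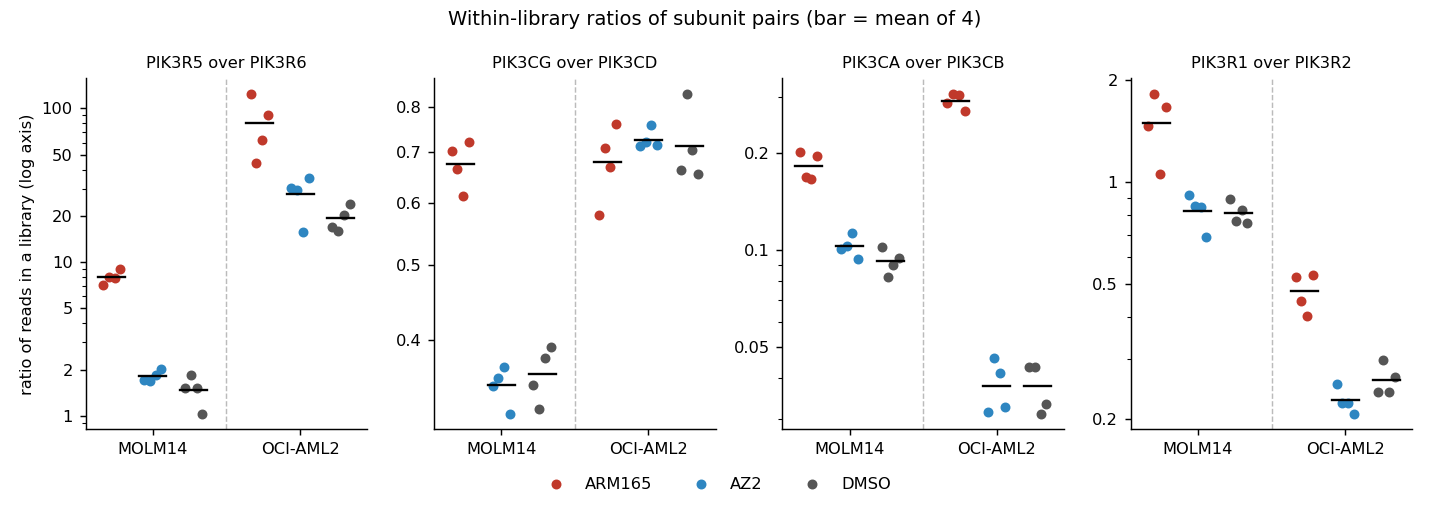
Ratios of reads between paired subunit genes within each library, on log axes (points, libraries; bars, means of 4). The PIK3R5 to PIK3R6 ratio was higher in every ARM165 library than in any DMSO library of the same line, whereas the PIK3CG to PIK3CD ratio separated ARM165 from DMSO in MOLM14 and overlapped in OCI-AML2.

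PIK3CD, the delta catalytic gene and a main isoform of leukocytes, fell with ARM165 in both lines. In MOLM14 it had 3368, 3275, 3520.1 and 2930.2 reads with ARM165, 8503, 8114, 8975 and 8217 with AZ2, and 8975, 8898, 8515 and 8611 with DMSO. In OCI-AML2 it had 2033, 1783, 1876 and 1660.1 reads with ARM165, 4284, 4273, 3858 and 4408 with AZ2, and 4889, 3928, 4256 and 4343 with DMSO. In both lines every ARM165 library lay below every other library, and AZ2 and DMSO overlapped. The change was -1.42 ± 0.054 in MOLM14 (limma adjusted p = 3.96e-12) and -1.24 ± 0.076 in OCI-AML2 (8.39e-10), leaving 37.4% and 42.2% of the DMSO means. The PIK3CG to PIK3CD ratio averaged 0.67 ± 0.047 with ARM165 and 0.36 ± 0.030 with DMSO in MOLM14, and 0.68 ± 0.075 with ARM165 and 0.71 ± 0.081 with DMSO in OCI-AML2.

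PIK3CA, the alpha catalytic gene and the isoform most often mutated in solid tumours, rose with ARM165 in both lines. In MOLM14 it had 908, 746, 717 and 907 reads with ARM165, 413, 399.7, 421 and 368 with AZ2, and 424, 349, 387 and 398 with DMSO. In OCI-AML2 it had 584, 526, 575 and 611 reads with ARM165, 117, 175, 154 and 127 with AZ2, and 181, 183, 121 and 125 with DMSO. ARM165 libraries were above all others in both lines. The change was 1.07 ± 0.097 in MOLM14 (limma adjusted p = 8.42e-08) and 1.93 ± 0.17 in OCI-AML2 (4.80e-08). Of the 31-base sequences of PIK3CA transcripts in GENCODE release 29, 38.8% occur in another gene, 35.6% in the overlapping gene KCNMB3 and 17.5% in the pseudogene KCNMB3P1, so that estimated reads could be split among them. KCNMB3 averaged 32.8 with ARM165 and 15.8 with DMSO in MOLM14, and 22.2 with ARM165 and 25.2 with DMSO in OCI-AML2. KCNMB3P1 averaged 36.7 with ARM165 and 8.72 with DMSO in OCI-AML2. All these means were below every PIK3CA value.

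The RefSeq promoter of PIK3CA is shown because this gene rose in both lines and its window was the single one of 20 member promoters, from 8 genes, to hold GTAAACA, the core bound by forkhead factors. FOXO proteins, which are forkhead factors, are kept out of the nucleus by AKT. The window lies at chr3:179148107-179148406 (GRCh38.p14, plus strand), and capitals mark the motif on the reverse strand, with its first base at -149 from the start.
PIK3CA promoter: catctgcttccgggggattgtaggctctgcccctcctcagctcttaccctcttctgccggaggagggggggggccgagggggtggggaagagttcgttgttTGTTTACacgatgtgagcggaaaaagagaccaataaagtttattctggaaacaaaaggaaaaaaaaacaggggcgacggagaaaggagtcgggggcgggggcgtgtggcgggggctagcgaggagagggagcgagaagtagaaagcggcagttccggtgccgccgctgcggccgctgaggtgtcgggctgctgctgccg
Of the 35116 background promoters, 3.42% hold this motif, and the match is no evidence of binding. Its part in the rise of PIK3CA was not tested. Of 3 other motifs searched on both strands, none was found in a member promoter. The E-box CACGTG is held by 7.26% of the background promoters, the AP-1 motif TGACTCA by 4.95% and the core of the composite CHOP and ATF4 motif, TGATGCA, by 2.63%. GAGGAAG was found in 1 promoter each of PIK3CG, PIK3R1 and PIK3R5. No PIK3R6 promoter was among the 20, so none of the motifs was searched for there.

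PIK3CB, the beta catalytic gene, was the member whose response differed most between the lines. In MOLM14 it had 4484, 4429, 4312 and 4632 reads with ARM165, 4099, 3865, 3717 and 3904 with AZ2, and 4147, 4206, 4297 and 4218 with DMSO. The ARM165 libraries were slightly above the DMSO libraries without overlap, and the change of 0.082 ± 0.041 did not pass the test (limma adjusted p = 0.0892). After quantile normalization it was 0.12 and did pass (adjusted p = 0.00811). In OCI-AML2 it had 2042, 1725, 1887 and 2256 reads with ARM165, 3744, 3779.6, 3699.8 and 3878 with AZ2, and 4173, 4232, 3896 and 3755 with DMSO. Here the ARM165 libraries lay below all others, at 49.3% of the DMSO mean. The change was -1.03 ± 0.073 (limma adjusted p = 4.94e-09). The PIK3CA to PIK3CB ratio averaged 0.18 ± 0.019 with ARM165 and 0.092 ± 0.0081 with DMSO in MOLM14. In OCI-AML2 it averaged 0.29 ± 0.016 with ARM165 and 0.038 ± 0.0065 with DMSO, 7.72 times as high with ARM165.

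Among the SH2-domain regulatory genes, PIK3R2 (p85 beta) fell clearly in both lines, whereas the changes of PIK3R1 (p85 alpha) and PIK3R3 (p55 gamma) were smaller. PIK3R2 ranged from 538 to 629 with ARM165, from 989.9 to 1069 with AZ2 and from 984 to 1142 with DMSO in MOLM14. In OCI-AML2 it ranged from 379.5 to 438 with ARM165, from 926 to 1064 with AZ2 and from 861 to 1029.8 with DMSO. Its changes were -0.83 ± 0.071 in MOLM14 (limma adjusted p = 4.56e-08) and -1.20 ± 0.082 in OCI-AML2 (3.00e-09). Of the PIK3R2 31-base sequences, 85.6% also occur in AC007192.1, a readthrough gene over the same locus. AC007192.1 averaged 60.5 with ARM165 and 42.5 with DMSO in MOLM14, and 21.6 with ARM165 and 59.0 with DMSO in OCI-AML2, far below PIK3R2 in every group, but reads from the shared part cannot be assigned to either gene by sequence.

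PIK3R1 ranged from 663 to 976 with ARM165, from 736 to 909 with AZ2 and from 756 to 949 with DMSO in MOLM14, where the groups overlapped and the change was 0.031 ± 0.12 (95% interval -0.22 to 0.28, limma adjusted p = 0.825). In OCI-AML2 it ranged from 177 to 207 with ARM165, from 213 to 235 with AZ2 and from 226 to 257 with DMSO, a change of -0.34 ± 0.11 (adjusted p = 0.0112). PIK3R3 ranged from 642 to 827 with ARM165, from 719 to 968 with AZ2 and from 842 to 975 with DMSO in MOLM14, a change of -0.28 ± 0.099 (adjusted p = 0.0192). This call was lost without DMSO replicate 2 (adjusted p = 0.0543) or ARM165 replicate 3 (0.0692). In OCI-AML2 it ranged from 358 to 438 with ARM165, from 414 to 534 with AZ2 and from 526 to 632 with DMSO, a change of -0.47 ± 0.11 (adjusted p = 0.00103). The PIK3R1 to PIK3R2 ratio averaged 1.499 ± 0.33 with ARM165 and 0.81 ± 0.060 with DMSO in MOLM14, and 0.48 ± 0.062 with ARM165 and 0.26 ± 0.027 with DMSO in OCI-AML2, with no overlap in either line.

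**Figure D3:**
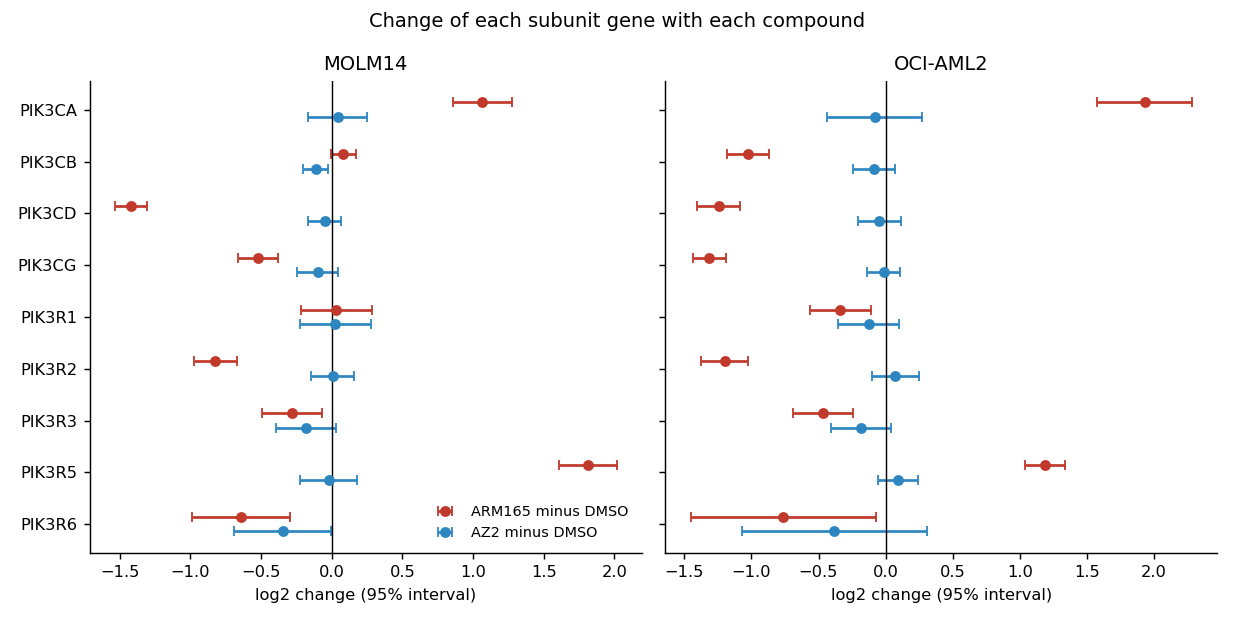
Log2 change of each subunit gene with ARM165 and with AZ2, each minus DMSO, in both lines (points, changes from limma; bars, 95% intervals without adjustment). ARM165 intervals for PIK3CA and PIK3R5 lie above 0 and those for PIK3CD, PIK3CG and PIK3R2 below 0 in both lines, while most AZ2 intervals span 0.

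Divided by the longest protein-coding transcript of GENCODE release 29, the DMSO levels ordered the catalytic genes of MOLM14 as PIK3CD at 1596 ± 40.4 reads per kilobase, PIK3CB at 712 ± 10.4, PIK3CG at 588 ± 37.3 and PIK3CA at 42.8 ± 3.44 (SD, n = 4). No neighbours in that order overlapped. In OCI-AML2 the order was the same, with PIK3CD at 794 ± 72.8, PIK3CB at 678 ± 38.2, PIK3CG at 574 ± 37.1 and PIK3CA at 16.8 ± 3.76 reads per kilobase. With the median transcript length instead, chosen after seeing the data, PIK3CB came first in both lines, at 2749 and 2617 reads per kilobase, and PIK3CA stayed last. Among the regulatory genes of MOLM14, PIK3R2 stood at 258 ± 17.3 reads per kilobase, PIK3R3 at 164 ± 10.4 and PIK3R1 at 121 ± 13.2. PIK3R6 at 70.04 ± 11.5 and PIK3R5 at 68.0 ± 6.40 overlapped. In OCI-AML2, PIK3R5 led at 339.6 ± 29.5 reads per kilobase, then PIK3R2 at 234 ± 17.1, PIK3R3 at 99.6 ± 8.89, PIK3R1 with libraries from 32.2 to 36.6 and PIK3R6 at 26.5 ± 3.74. This order also depended on the length used. With the median length PIK3R1 came first in MOLM14, at 538 ± 58.9 reads per kilobase, and overlapped PIK3R2 at 476 ± 31.8, while PIK3R3 followed at 183 ± 11.6 and PIK3R5 and PIK3R6 again overlapped. In OCI-AML2 the median length put PIK3R2 at 431.5 ± 31.5 and PIK3R5 at 403, with libraries from 351 to 422, which overlapped, and PIK3R1 at 156 ± 8.62 above PIK3R3 at 111 ± 9.94. PIK3R6 stayed last of the 5 in OCI-AML2 with either length, and PIK3R5 stayed above it.

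With AZ2 no subunit gene passed the test in either line. Of all genes tested, 0% were called in MOLM14 and 0.111% in OCI-AML2, that is 0 and 17 genes by limma, with 899 and 733 at an unadjusted p under 0.05. In MOLM14, 2 of the 9 had an unadjusted p under 0.05. PIK3CB averaged 3896 ± 157 with AZ2 and 4217 ± 61.5 with DMSO, a change of -0.11 ± 0.041 without overlap (adjusted p = 0.704), and PIK3R6 had a change of -0.35 ± 0.16 (adjusted p = 0.839). In OCI-AML2 no subunit gene reached an unadjusted p under 0.05. For PIK3CG the 95% interval of the AZ2 change was -0.24 to 0.045 in MOLM14 and -0.14 to 0.11 in OCI-AML2, and for PIK3R5 it was -0.23 to 0.18 and -0.057 to 0.24. The widest interval was that of PIK3R6 in OCI-AML2, from -1.07 to 0.31.

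ARM165 was also set directly against AZ2, a comparison that shares its ARM165 libraries with the one above. In MOLM14, PIK3CA, PIK3R5 and PIK3CB were called higher and PIK3CD, PIK3CG and PIK3R2 lower, where 36.1% of genes tested were called higher and 34.0% lower. PIK3CB differed by 0.20 ± 0.041 between the compounds (limma adjusted p = 0.000515), PIK3R5 by 1.83 ± 0.096 (1.19e-10) and PIK3CD by -1.37 ± 0.054 (5.17e-12). PIK3R6 was not called, at -0.29 ± 0.16 (95% interval -0.64 to 0.050, adjusted p = 0.116), but was called without AZ2 replicate 4 (0.0376). In OCI-AML2, PIK3CA and PIK3R5 were called higher and PIK3CB, PIK3CD, PIK3CG, PIK3R2 and PIK3R3 lower, where 34.5% of genes tested were called higher and 31.4% lower. PIK3CG differed by -1.30 ± 0.057 (limma adjusted p = 2.25e-11) and PIK3CA by 2.01 ± 0.17 (2.97e-08). The PIK3R3 call, at -0.28 ± 0.11 (0.0276), was lost without AZ2 replicate 1, 2 or 4 (0.0803, 0.0756 and 0.0527) or ARM165 replicate 3 or 4 (0.0894 and 0.0549). In OCI-AML2 PIK3R1 (95% interval -0.44 to 0.016) and PIK3R6 (-1.07 to 0.31) were not called.

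The response to ARM165 differed between the lines for 5 of the 9 genes, tested as the change in MOLM14 minus the change in OCI-AML2 in 1 fit of all 24 libraries. By that test 42.4% of 14287 genes tested in both lines differed. PIK3CB differed most, by 1.11 ± 0.083 (limma adjusted p = 1.81e-10), since it fell in OCI-AML2 and was not called in MOLM14. PIK3CG differed by 0.79 ± 0.088 (1.08e-07) and PIK3R2 by 0.37 ± 0.10 (0.00535), both having fallen further in OCI-AML2. PIK3R5 differed by 0.62 ± 0.11 (0.000105), with the larger rise in MOLM14, and PIK3CA by -0.86 ± 0.20 (0.000921), with the larger rise in OCI-AML2.

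For PIK3CD the difference was -0.18 ± 0.095 (95% interval -0.37 to 0.018, limma adjusted p = 0.138), called without OCI-AML2 DMSO replicate 1 (0.0422). For PIK3R1 it was 0.37 ± 0.15 (0.0546), which was called after TMM rescaling (0.0376) and on leaving out MOLM14 DMSO replicate 3 (0.0338), AZ2 replicate 4 (0.0466) or ARM165 replicate 3 (0.00388) or, from OCI-AML2, replicate 3 of DMSO (0.043) or 1 of ARM165 (0.0494). The 95% interval was -0.12 to 0.49 for PIK3R3 and -0.64 to 0.88 for PIK3R6. For AZ2 minus DMSO no subunit gene differed between the lines, where 0.0280% of genes did. For ARM165 minus AZ2 the same 5 genes differed, where 43.8% of genes did. PIK3R1 there had a difference of 0.22 ± 0.15 (adjusted p = 0.268) and was called without MOLM14 ARM165 replicate 3 (0.0381).

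Set among all genes tested, the changes with ARM165 ranged widely in size. In MOLM14 the change of PIK3R5 was larger in size than that of 90.8% of genes tested, that of PIK3CD than 84.1% and that of PIK3CA than 73.1%. PIK3CG stood at 42.7%, and PIK3CB and PIK3R1 at 6.95% and 2.77%. In OCI-AML2 the change of PIK3CA was larger than that of 91% of genes, PIK3CG than 79%, PIK3CD than 76.7%, PIK3R2 than 75.2% and PIK3R5 than 75%. There PIK3CB stood at 68.9%, PIK3R6 at 56.1%, PIK3R3 at 36.9% and PIK3R1 at 27.3%. The median size of a log2 change over all genes tested was 0.63 in MOLM14 and 0.66 in OCI-AML2. The median change of the 9 subunit genes was -0.28 in MOLM14 and -0.76 in OCI-AML2, beside 0.031 and 0.034 over all genes tested. Each of these medians is the change of a single gene, PIK3R3 in MOLM14 and PIK3R6 in OCI-AML2. The calls of both were lost on leaving out some libraries.

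**Figure D4:**
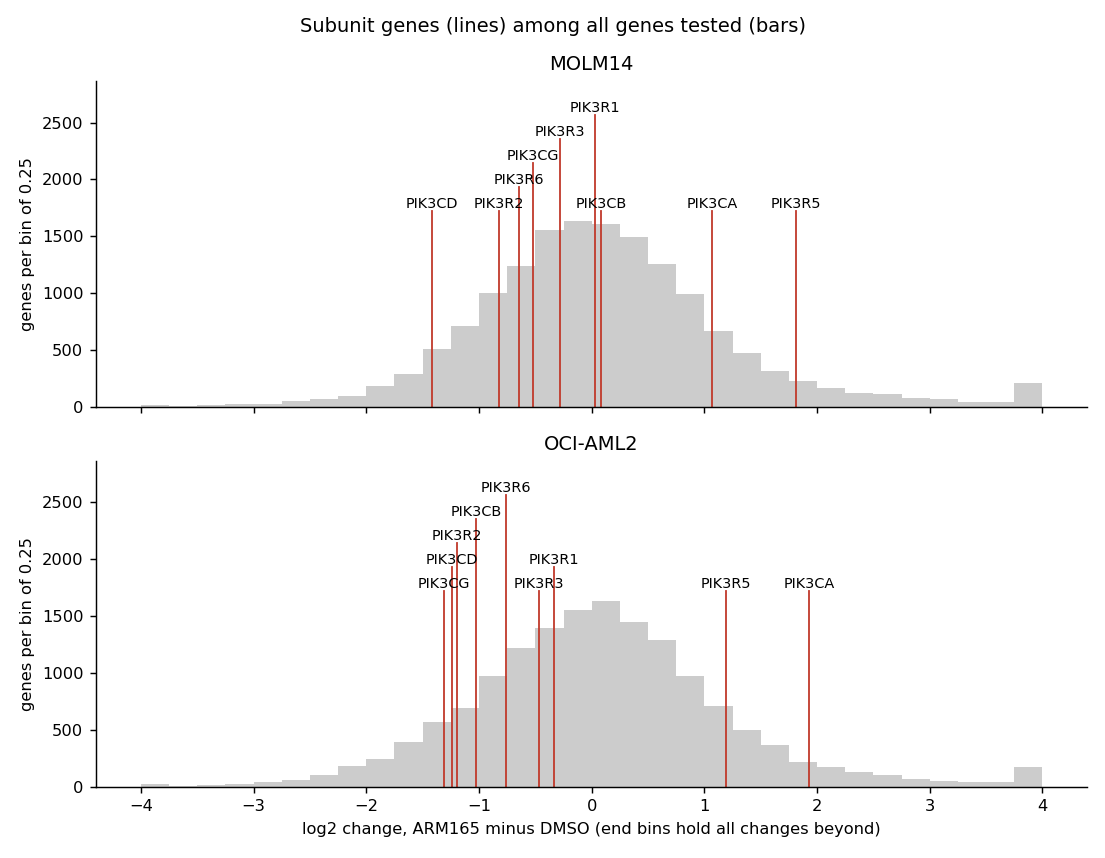
Numbers of genes by log2 change with ARM165 minus DMSO (bars, bins of 0.25; end bins hold all larger changes) with the 9 subunit genes marked by lines whose height carries no value. In MOLM14 PIK3R5 (1.81) and PIK3CD (-1.42) lie towards the flanks, and in OCI-AML2 PIK3CG, PIK3CD, PIK3R2 and PIK3CB lie together between -1.31 and -1.03.

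Other genes of the pathway were counted by list in ARM165 minus DMSO. Over all genes tested, 35.5% were higher and 34.0% lower in MOLM14 and 34.2% higher and 31.6% lower in OCI-AML2, with medians of 0.031 and 0.034. Of the other PI3K classes and their partners, 6 of 8 tested genes were higher and 1 lower in MOLM14 (median 0.52), and 5 of 8 higher and 1 lower in OCI-AML2 (median 0.48). PIK3C3, the class III kinase of autophagy and endosomes, averaged 1290 ± 93.4 with ARM165 and 757 ± 25.3 with DMSO in MOLM14, and 1630.0 ± 93.8 with ARM165 and 566 ± 161 with DMSO in OCI-AML2. Its complex partner ATG14 rose by 1.59 ± 0.066 in OCI-AML2 (limma adjusted p = 1.04e-11), and NRBF2, another partner, rose by 0.61 ± 0.047 in MOLM14 (1.33e-08) and 0.67 ± 0.071 in OCI-AML2 (5.37e-07). PIK3C2A, a class II kinase, rose by 0.88 ± 0.088 in MOLM14 (2.62e-07).

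A list of receptors, adaptors and regulators upstream of class I PI3K, negative regulators among them, was counted next. In MOLM14, 13 of 28 were higher and 6 lower (median 0.53), and in OCI-AML2 16 of 27 higher and 6 lower (median 0.45). All genes tested stood at 35.5% higher and 34.0% lower in MOLM14, and at 34.2% and 31.6% in OCI-AML2. FLT3, the receptor tyrosine kinase often mutated in this leukaemia, averaged 10668 ± 610 with ARM165 and 24075 ± 581 with DMSO in MOLM14, and 1979 ± 153 with ARM165 and 6164 ± 679 with DMSO in OCI-AML2. In MOLM14 the receptor AXL rose by 2.81 ± 0.066 (limma adjusted p = 3.46e-14). In OCI-AML2 the kinase SYK fell by 1.34 ± 0.049 on the log2 scale (3.01e-12) and PIK3AP1, an adaptor that binds regulatory subunits, changed by -1.33 ± 0.069 (1.25e-10).

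Of the G protein and RAS-family genes upstream of the gamma and beta isoforms, 19 of 37 were higher and 12 lower in MOLM14 (median 0.18), and 16 of 39 higher and 13 lower in OCI-AML2 (median 0.037). Of all genes tested, 35.5% were higher and 34.0% lower in MOLM14, and 34.2% and 31.6% in OCI-AML2, so that the shares of the list that were lower lay near the background in both lines. The chemokine receptor CXCR4 averaged 2819 ± 244 with ARM165 and 10577 ± 122 with DMSO in MOLM14, and 2608 ± 176 with ARM165 and 11077 ± 713 with DMSO in OCI-AML2. The receptor CCR2 changed by -3.21 ± 0.12 in MOLM14 (limma adjusted p = 4.30e-12) and -2.75 ± 0.080 in OCI-AML2 (2.36e-13). The nucleotide receptor P2RY2 fell by 2.47 ± 0.064 in MOLM14 (9.90e-14), and RASGRP2, an exchange factor for RAP1, fell by 2.20 ± 0.061 in OCI-AML2 (1.39e-13).

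Of a list of phosphoinositide and inositol phosphate phosphatases, 12 of 16 were higher and 2 lower in MOLM14 (median 0.34), and 12 of 15 higher and 2 lower in OCI-AML2 (median 0.65). The shares over all genes were 35.5% higher and 34.0% lower in MOLM14, and 34.2% and 31.6% in OCI-AML2. SYNJ2 rose by 1.22 ± 0.054 in MOLM14 (limma adjusted p = 1.97e-11) and 2.52 ± 0.092 in OCI-AML2 (2.49e-12). INPP5B and INPP5F rose by 0.95 ± 0.063 and 0.80 ± 0.056 in MOLM14, and MTMR2 rose by 1.25 ± 0.080 in OCI-AML2. Not all of the list acts on PIP3: MTMR2 removes the 3-phosphate of other phosphoinositides and INPP5A acts on soluble inositol phosphates. INPP5D, which encodes the blood-cell PIP3 phosphatase SHIP1, was one of the exceptions, with 262 ± 8.48 with ARM165 and 598 ± 36.2 with DMSO in OCI-AML2.

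A list of enzymes and lipid transfer proteins that supply the PI3K substrate was counted in the same way. In MOLM14, 5 of 12 were higher and 3 lower (median 0.032), and in OCI-AML2 8 of 13 higher and 5 lower (median 0.28). Beside them, 35.5% of all genes were higher and 34.0% lower in MOLM14, and 34.2% and 31.6% in OCI-AML2. PIP5K1C, a kinase that makes the substrate lipid, rose by 1.34 ± 0.051 in MOLM14 (limma adjusted p = 4.42e-12) and 2.02 ± 0.10 in OCI-AML2 (9.58e-11). PI4KB rose by 0.59 ± 0.045 in MOLM14 and 1.70 ± 0.13 in OCI-AML2, and PIP5K1A by 1.20 ± 0.072 in OCI-AML2. PITPNA, a lipid transfer protein gene, rose by 0.73 ± 0.061 in MOLM14. A list of proteins that bind PIP3 or, for some, related lipids was also counted. In MOLM14, 19 of 32 were higher and 7 lower (median 0.50), and in OCI-AML2 15 of 32 higher and 12 lower (median 0.20). FERMT3, an integrin activator, rose by 1.37 ± 0.055 in MOLM14 (6.82e-12) and 2.67 ± 0.096 in OCI-AML2 (2.31e-12), and CYTH1, an ARF exchange factor, by 2.24 ± 0.077 and 2.03 ± 0.061. DOCK8 rose by 0.96 ± 0.042 in MOLM14 and ARAP3 by 1.54 ± 0.066 in OCI-AML2.

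Of the myeloid markers, 5 of 15 were higher and 7 lower in MOLM14 (median -0.26), and 1 of 16 higher and 12 lower in OCI-AML2 (median -1.12). All genes tested had 35.5% higher and 34.0% lower in MOLM14, and 34.2% and 31.6% in OCI-AML2. Named after their values were seen, the 5 that rose in MOLM14 were TYROBP (0.74 ± 0.082, limma adjusted p = 9.09e-07), CD68 (0.54 ± 0.071), SPI1 (0.33 ± 0.053), ITGAM (0.34 ± 0.14) and CEBPE, and CD14 rose in OCI-AML2 (0.93 ± 0.22, 0.00137). LYZ, which encodes lysozyme, averaged 2677 ± 200 with ARM165 and 20319 ± 455 with DMSO in MOLM14, and 19745 ± 1287 with ARM165 and 47536 ± 4048 with DMSO in OCI-AML2. ELANE, the neutrophil elastase gene, changed by -1.43 ± 0.097 in MOLM14 (limma adjusted p = 2.59e-09) and -3.30 ± 0.14 in OCI-AML2 (1.55e-11). AZU1, another granule gene, changed by -1.62 ± 0.093 in MOLM14. CEBPE, a granulocyte transcription factor, changed by -1.82 ± 0.075 in OCI-AML2, but rose in MOLM14, where it averaged 30.5 with ARM165 and 8.05 with DMSO (1.70 ± 0.62, limma adjusted p = 0.0228). With AZ2, 0 members of any of these lists were called in either line. Among all genes tested, 0% were called with AZ2 in MOLM14 and 0.111% in OCI-AML2.

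**Figure D5:**
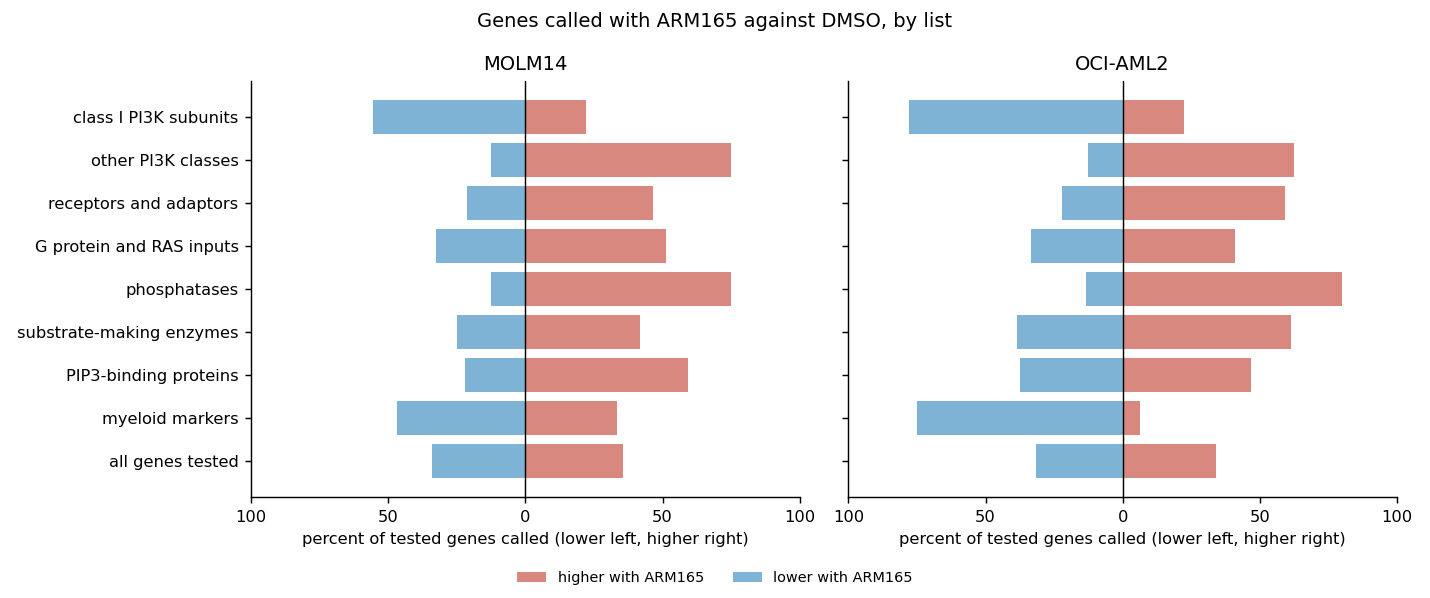
Percent of tested genes of each list called higher (right) or lower (left) with ARM165 against DMSO, beside all genes tested (bottom bar). Of the subunit genes 2 of 9 were higher in both lines, with 5 lower in MOLM14 and 7 in OCI-AML2. Of the phosphatase list 12 of 16 were higher and 2 lower in MOLM14, and 12 of 15 higher and 2 lower in OCI-AML2. Of all genes tested, 35.5% were higher and 34.0% lower in MOLM14, and 34.2% and 31.6% in OCI-AML2.

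The genes whose pattern over the 24 libraries lay closest to a gamma or delta subunit gene were found among 11280 genes, by the root mean square difference of log2 values centred on the DMSO mean of each line. Closest to PIK3CG were ARHGEF6 at 0.10, CAT at 0.10 and CCND3 at 0.11. ARHGEF6 changed by -0.47 in MOLM14 and -1.20 in OCI-AML2 with ARM165, and CAT by -0.47 and -1.40. Closest to PIK3CD were NCAPD2, TMEM131L and ZNF485, at 0.10 to 0.11. Closest to PIK3R5 were NFE4 at 0.11, TRIM38 at 0.13 and C20orf194 at 0.14, and NFE4 changed by 1.85 in MOLM14 and 1.22 in OCI-AML2. For PIK3R6 the closest genes, ZNF343, ACAP1 and SIPA1, lay at 0.33, farther than for the other 3. Single libraries enter this distance, and those of PIK3R6 spread widely, from 28.2 to 77.4 reads with ARM165 in OCI-AML2. The part of that spread in the distance was not tested. These distances are descriptions, and the points share their treatments.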

How the data were processed

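The submitters' processing notes name kallisto, with no version; the build, annotation and scaling method are not given in the sources used here. Libraries were stranded poly(A), per the labels' protocols. The deposited signal values are normalized estimated reads per gene symbol, 1 table per line. Of values above 0, 15.1 to 15.9% were whole within 0.01 read, so whole reads were not recovered and no count test was run. All sample columns were used.

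Values were taken as log2(value + 1), which understates changes of low genes. Genes with at least 10 in at least 4 of a line's 12 libraries were kept. A model with 1 mean per group was fitted per line with limma 3.58.1 (R 4.3.3; variance trend, Benjamini-Hochberg adjustment over all genes tested), and line differences in 1 fit of 24 libraries. The procedure was tested on simulated data with independent noise and few changed genes, up and down in equal number. Most genes were called with ARM165 here, a setting which that simulation did not cover. TMM factors were computed by their published formula and used only to rescale values. Intervals are 95% and unadjusted. Sequences and gene order come from RefSeq (GRCh38.p14); shared sequence and lengths come from GENCODE release 29. Figures used matplotlib 3.10.9.

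Members, lists and motifs were chosen with earlier results of these data known. All 9 members are named; from each list, line and comparison with DMSO up to 3 called genes with the smallest adjusted p and a mean of at least 50; and for PIK3CG, PIK3CD, PIK3R5 and PIK3R6 the 3 genes of closest pattern. Marker genes, neighbours and genes that share sequence were named after their values were seen. Alternatives tried were other pseudocounts, filters, scalings and variance settings, a replicate block, and leaving out each library. Same-numbered replicates were not paired by the labels. A gene that the rule for named genes would take is not reported here.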

Additional observations from a re-analysis of the deposited data

Results flagged for a closer look

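In 4 of the 54 groups of 4 libraries (a line, a treatment and a subunit gene), 1 library stood apart: its gap to the nearest other, divided by the group's range, was above Dixon's 95% critical value for 4. Chance flags about 1 in 20 such groups. The gap was 0.947 for PIK3R1 with AZ2 in MOLM14, where replicate 4 had 736 reads and the others 899 to 909. It was 0.888 for PIK3R2 with AZ2 in MOLM14, where replicate 1 had 989.9 and the others 1060.0 to 1069. It was 0.959 for PIK3CG with ARM165 in OCI-AML2, where replicate 1 had 1180.2 and the others 1257 to 1260. It was 0.945 for PIK3R5 with DMSO in OCI-AML2, where replicate 2 had 1328 and the others 1583 to 1598. Leaving out the library concerned changed no call of PIK3R2, PIK3CG or PIK3R5. For PIK3R1 it added the call of the line difference with ARM165 (0.3683, limma adjusted p = 0.0466).

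The change with ARM165 differed between the lines (MOLM14 minus OCI-AML2, limma interaction test) for the same 5 of 9 genes against either DMSO or AZ2. Of all 14287 genes tested, 42.4% differed against DMSO and 43.8% against AZ2. Against DMSO the differences were -0.864 for PIK3CA, 1.11 for PIK3CB, 0.792 for PIK3CG, 0.374 for PIK3R2 and 0.621 for PIK3R5. Against AZ2 they were -0.985 for PIK3CA, 1.14 for PIK3CB, 0.875 for PIK3CG, 0.437 for PIK3R2 and 0.736 for PIK3R5. The ARM165 libraries are the same in both comparisons. Summed myeloid marker levels also moved with ARM165 in both lines, and their part in these differences was not tested.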

How the results depend on the processing

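No called subunit gene changed direction under any alternative run, and the sign changes below concern changes that were never called. The cause of each was not tested. After quantile normalization, with or without the replicate block, the change was 0.005191 for PIK3R5 with AZ2 in MOLM14, -0.02264 for PIK3R1 in ARM165 minus AZ2 in MOLM14 and 0.004994 for PIK3CG with AZ2 in OCI-AML2. The line difference was -0.00455 for PIK3R3 with AZ2 and -0.03701 for PIK3R6 in ARM165 minus AZ2. After TMM rescaling the values were -0.02155 for PIK3R1 in ARM165 minus AZ2 in MOLM14, 0.004681 for PIK3CG with AZ2 in OCI-AML2 and -0.0131 for the PIK3R3 line difference with AZ2. Quantile normalization moved the median of all genes by -0.103 in ARM165 minus AZ2 in MOLM14. It added the calls of PIK3R6 in that comparison (adjusted p = 0.00556), PIK3R1 in OCI-AML2 (0.00448) and the PIK3R1 line difference with ARM165 (0.00768), which was also called with a mean filter of 50 (0.0438). PIK3R6 with ARM165 in OCI-AML2 was not called without a filter (0.105).

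Counts of genes called with AZ2, which are small, moved. In MOLM14 1 gene was lower with only the groups compared in the fit. In OCI-AML2 2 were higher with a pseudocount of 5, quantile normalization, only the groups compared or robust moderation, and 5 were higher and 10 lower without a filter. Between the lines 2 were lower without a filter or with only the groups compared. Leaving out 1 library gave 0 to 3 lower in MOLM14, 1 to 2 higher and 8 to 16 lower in OCI-AML2, and 0 to 7 higher and 0 to 1 lower between the lines. The subunit genes with a lower line difference with ARM165 numbered 1 to 2.

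Leaving out 1 library moved these uncalled changes across 0. In MOLM14 they ranged from -0.0682 to 0.1307 for PIK3R1 in ARM165 minus AZ2 and -0.02859 to 0.157 with ARM165, and with AZ2 from -0.01025 to 0.0835 for PIK3CA, -0.026 to 0.09966 for PIK3R1, -0.01782 to 0.05375 for PIK3R2 and -0.08023 to 0.0359 for PIK3R5. In OCI-AML2 with AZ2 they ranged from -0.182 to 0.01671 for PIK3CA, -0.09531 to 0.009999 for PIK3CD and -0.05305 to 0.01233 for PIK3CG. Line differences ranged from -0.1652 to 0.324 for PIK3R6 in ARM165 minus AZ2 and -0.1176 to 0.3579 with ARM165, and with AZ2 from -0.05411 to 0.003371 for PIK3CB, -0.06068 to 0.04463 for PIK3CD, -0.08159 to 0.06118 for PIK3R3 and -0.1444 to 0.2853 for PIK3R6.

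With the replicate block, OCI-AML2 AZ2 gave 9 genes lower (8 with quantile normalization) and the lines differed in 2 genes higher; no subunit call changed with the block alone. Correlations of same-numbered deviations ranged from -0.0262 to 0.0558 in MOLM14 and -0.0373 to 0.0468 in OCI-AML2, none over 0.1. Over all comparisons, 7 of 12 pairs in MOLM14 and 4 of 12 in OCI-AML2 had the same number as best match among 4 libraries. In MOLM14 replicates 1, 2, 3 and 4 each matched their own number in ARM165 minus AZ2, and none did in ARM165 minus DMSO. PIK3R6 had the lowest values of the members, down to 28.2 normalized estimated reads in OCI-AML2 with ARM165. The part of depth in this was not tested.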
